A study of Homo sapiens with 6 samples.

Results

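Ribosome biogenesis and RNA polymerase I genes were described in DLD-1, a long-established line of human colorectal cancer cells. The cells had been transfected with an siRNA against the long non-coding RNA lncSLCC1 or with a control siRNA. The set held 45 protein-coding genes chosen by name for their role in making ribosomes or transcribing ribosomal DNA. They were chosen with earlier results of these data known. Counts of members set beside shares of all tested genes are thus a description and not a test of the set. All 45 were found among the 56638 gene symbols of the count tables. Total RNA was sequenced from 3 lncSLCC1 siRNA libraries and 3 control siRNA libraries of this same line, grown in serum-containing medium. The sources used here do not give the siRNA sequences, the dose or the time of harvest. Nor do they say whether replicates were separate cultures, so a p-value here measures spread between libraries that may be technical only. The files hold raw read counts per gene symbol. They are printed here as CPM, counts scaled to a common library total after correction by the trimmed mean of M-values (TMM). In bulk RNA, fewer cells expressing a gene and less RNA per cell cannot be told apart.

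Ribosomes are assembled in the nucleolus. RNA polymerase I transcribes the ribosomal DNA into a long precursor, small nucleolar ribonucleoproteins (snoRNPs) modify and help fold it, and a large set of helicases, methyltransferases, GTPases and scaffold proteins cut it and build the small and large subunits around it. Growing tumour cells make many ribosomes, and the transcription factor MYC, which binds the E-box word CACGTG, is known to drive many of these genes.

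Each library held 12572277 to 15568075 gene reads. The low-count filter left 15242 genes for the test. They included all 45 members, each with 51 to 42111 reads per library. The targeted RNA was listed as RP11-400N13.2 and had 1.66, 2.62 and 2.104 CPM after lncSLCC1 siRNA, against 5.197, 9.31 and 9.04 CPM after control siRNA (log2 fold change -1.88 with SE 0.264, edgeR adjusted p = 0.002696). Of 10 epithelial markers, 9 had at least 10 CPM in every library. VIL1 was called higher (log2 fold change 0.87 with SE 0.147, edgeR adjusted p = 0.00618) and CLDN4 lower (-0.51, SE 0.105, 0.0144). The other 10 markers, of fibroblasts, endothelium and leukocytes, summed to 6.002 to 6.31 CPM after lncSLCC1 siRNA and 5.07 to 6.26 CPM after control siRNA, with PECAM1 and CD34 at 0. Of these PDGFRB was called higher, at a mean of 1.32 CPM after lncSLCC1 siRNA and 0.533 CPM after control siRNA (log2 fold change 1.28 with SE 0.363, edgeR adjusted p = 0.0448). The part of the markers in the members' differences was not tested. The control libraries were more scattered than the lncSLCC1 siRNA libraries: among the members the median coefficient of variation was 2.89% after lncSLCC1 siRNA and 11.4% after control siRNA. Control replicate 1 stood farthest apart.

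After lncSLCC1 siRNA, 20 of the 45 members fell, 1 rose and 24 did not pass the test. Calls were made at a Benjamini-Hochberg adjusted p under 0.05 over all 15242 genes in edgeR's quasi-likelihood test, by which 7.39% of all tested genes were lower and 6.46% higher, together 13.8%. The log2 fold change, lncSLCC1 siRNA over control siRNA, was below 0 for 39 members and for 49% of all tested genes. Its median was -0.30 over the members and 0.0072 over all tested genes. The 3 lncSLCC1 siRNA libraries lay below all 3 control libraries for 29 members, as they did for 19.6% of all tested genes. They lay above them for 2 members, NOLC1 and TCOF1, as they did for 19.4% of all tested genes. At an unadjusted p under 0.05, 28 members were lower and 2 higher, against 16.3% and 15.3% of all tested genes. The members that fell kept between 44.7% and 80.7% of their control mean. Together the 45 members took 0.9605% to 0.961% of the gene reads after lncSLCC1 siRNA and 1.02% to 1.05% after control siRNA.

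**Figure D1:**
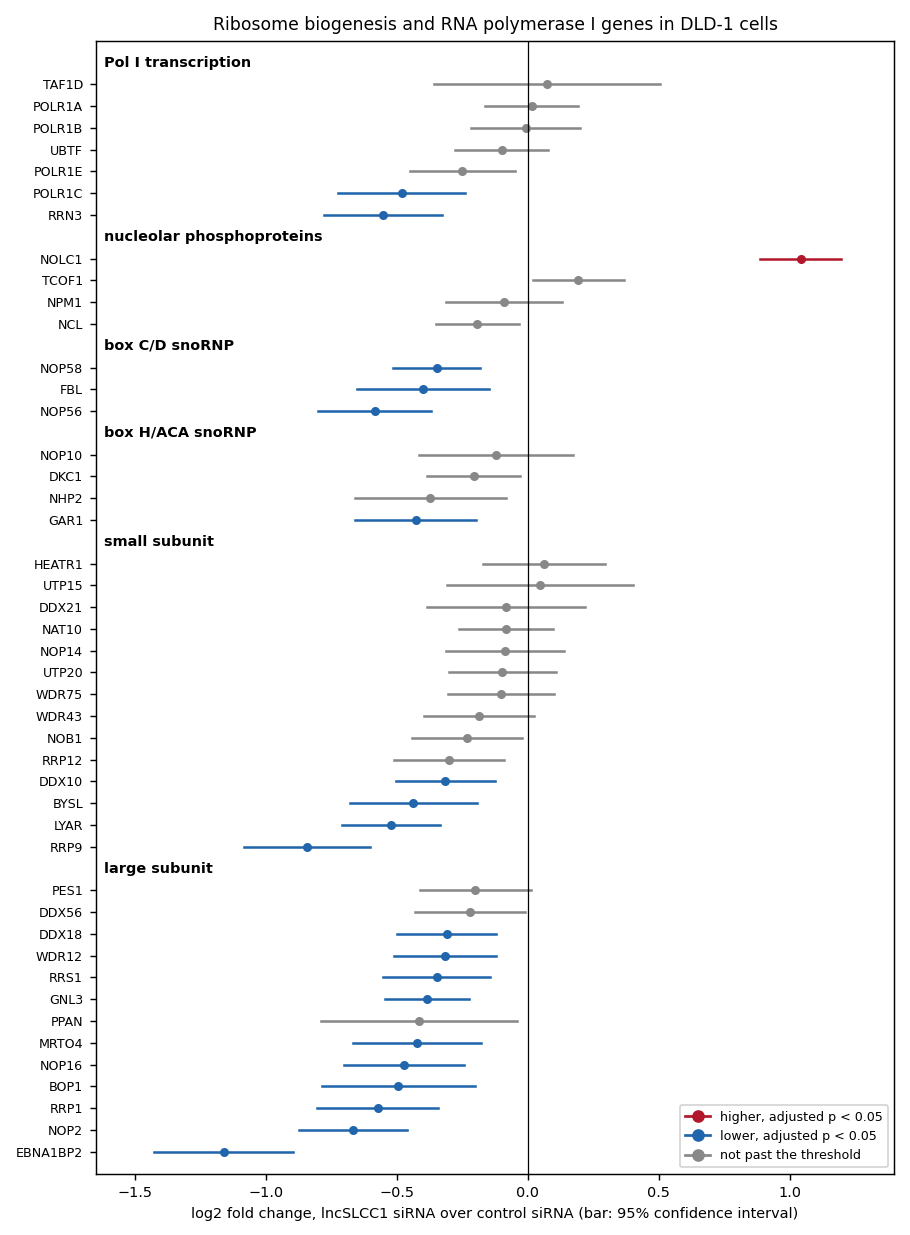
Log2 fold change of each member, lncSLCC1 siRNA over control siRNA (x axis; point and 95% confidence interval from edgeR, 3 libraries per group), with genes grouped by role down the page. Box C/D snoRNP and large subunit genes lie left of 0 throughout, and NOLC1 stands alone far to the right at 1.04.

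The exception was NOLC1, which encodes a nucleolar and Cajal body phosphoprotein that chaperones snoRNPs. NOLC1 had 593, 607 and 590.1 CPM in replicates 1, 2 and 3 of lncSLCC1 siRNA, against 297, 283 and 289 CPM in replicates 1, 2 and 3 of control siRNA. All lncSLCC1 siRNA libraries lay far above all control libraries, and replicates of each group stood close together. The level averaged 597 ± 8.76 CPM after lncSLCC1 siRNA and 289.6 ± 7.46 CPM after control siRNA (SD, n = 3 each), a 2.06-fold difference (log2 fold change 1.04 with SE 0.0692, edgeR adjusted p = 8.1e-05, 95% confidence interval 0.89 to 1.197). Ranked by p it was number 7 of the 15242 genes tested. In 14 alternative analyses its log2 fold change stayed between 1.02 and 1.11 and its call was kept. Per kilobase of transcript, NOLC1 averaged 150.4 CPM per kilobase in lncSLCC1 siRNA libraries and 73.0 in control siRNA libraries, which placed it as number 5 and number 16 of the 45 members in those groups.

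TCOF1, which encodes treacle, a nucleolar scaffold that resembles the NOLC1 product and partners it, had 318, 327 and 312 CPM after lncSLCC1 siRNA, against 301, 261 and 276 CPM after control siRNA. The groups did not overlap, but the small difference missed the threshold (log2 fold change 0.19 with SE 0.0777, edgeR adjusted p = 0.122, 95% confidence interval 0.02 to 0.37). It passed without control replicate 1 (log2 fold change 0.25, adjusted p = 0.001201). NCL and NPM1 encode nucleolin and nucleophosmin, the most abundant nucleolar phosphoproteins, and had the highest levels per kilobase of all members in both groups. NCL averaged 2387 ± 14.02 CPM after lncSLCC1 siRNA and 2727 ± 18.7 CPM after control siRNA (SD, n = 3 each) (log2 fold change -0.19 with SE 0.0707, edgeR adjusted p = 0.0963). NPM1 had 825, 819 and 864 CPM after lncSLCC1 siRNA, against 762, 991 and 919 CPM after control siRNA, with overlapping groups (log2 fold change -0.092 with SE 0.0989, edgeR adjusted p = 0.562). Without control replicate 1 both had a smaller adjusted p, of 0.00143 for NCL at a log2 fold change of -0.20 and of 0.00551 for NPM1 at -0.19. NPM1 values are uncertain, since 45 symbols named as its pseudogenes together held 88264 reads over the 6 libraries, against 76388 for NPM1 itself.

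**Figure D2:**
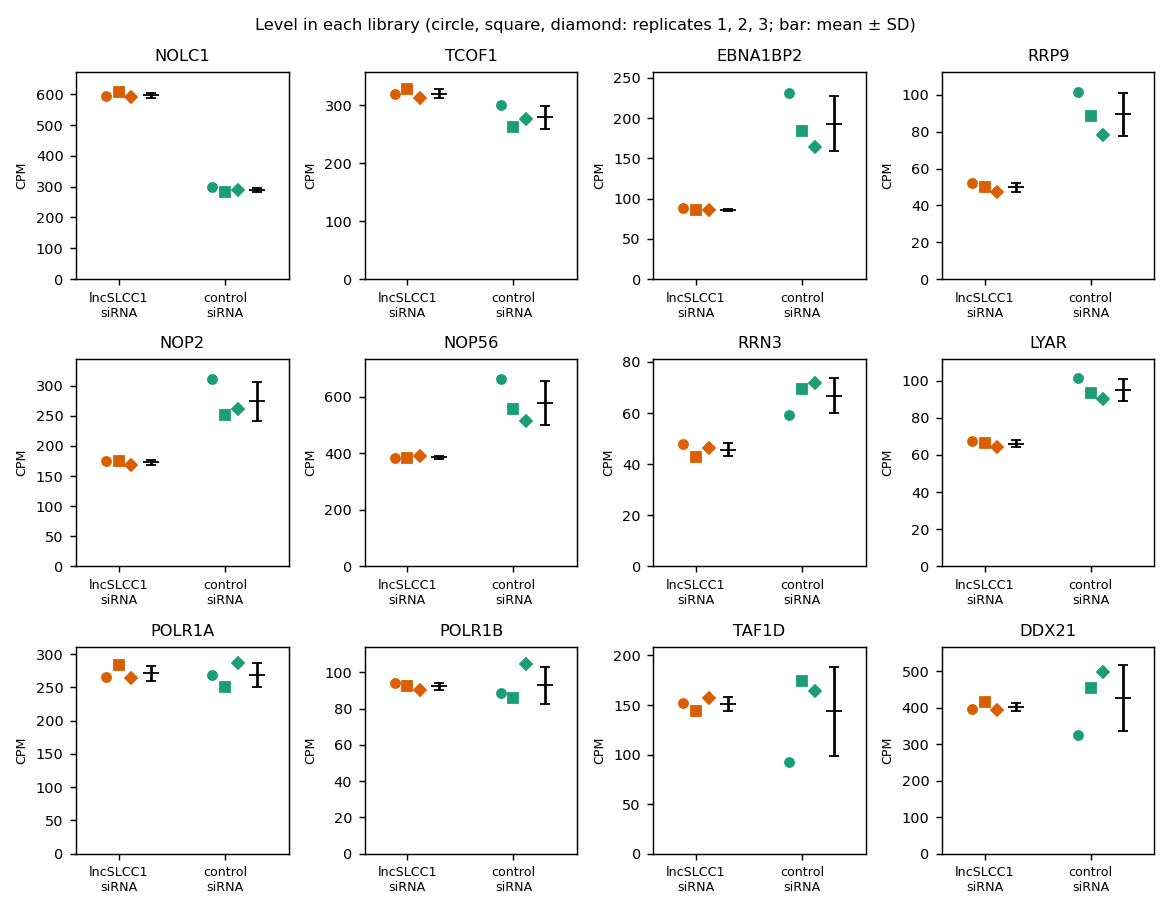
CPM per library (y axis, from 0) for 12 members, with lncSLCC1 siRNA libraries to the left of control siRNA libraries; points are libraries and bars the mean ± SD of 3. NOLC1 lies higher and EBNA1BP2, RRP9, NOP2, NOP56, RRN3 and LYAR lower in every lncSLCC1 siRNA library, while POLR1A, POLR1B, TAF1D and DDX21 overlap between groups.

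Of the 7 members that act in RNA polymerase I transcription, 2 fell, 0 rose and 5 did not pass the test (median log2 fold change -0.099). Of all tested genes, 7.39% fell and 6.46% rose. RRN3, the initiation factor that brings the polymerase to the ribosomal DNA promoter, had 47.8, 42.9 and 46.2 CPM after lncSLCC1 siRNA, against 59.3, 69.3 and 71.96 CPM after control siRNA. Every lncSLCC1 siRNA library was below every control library, and the mean was 68.2% of the control mean (log2 fold change -0.55 with SE 0.101, edgeR adjusted p = 0.00837). POLR1C, a subunit shared with RNA polymerase III, had 36.1, 34.04 and 35.4 CPM after lncSLCC1 siRNA, against 54.4, 50.4 and 42.6 CPM after control siRNA. Its groups also stood apart (log2 fold change -0.48 with SE 0.108, edgeR adjusted p = 0.0195). The call of RRN3 ended without control replicate 2 and without lncSLCC1 siRNA replicates 2 and 3 in turn, at adjusted p-values of 0.0554, 0.0673 and 0.0556 by edgeR. That of POLR1C ended without control replicate 2 (0.0874) or any lncSLCC1 siRNA library (0.0805 to 0.108). RRN3 has 3 pseudogene symbols in the tables, which held 30.4% as many reads as RRN3. Counted together with them it averaged 61.5 ± 2.05 CPM after lncSLCC1 siRNA and 85.3 ± 8.21 CPM after control siRNA (SD, n = 3 each). The exact permutation test, two-sided on log2 CPM, gave p = 0.1, the smallest that 3 against 3 libraries allow.

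The large catalytic subunits showed no detectable difference. POLR1A, the largest subunit, had 265, 284 and 265 CPM after lncSLCC1 siRNA, against 269, 250.5 and 286 CPM after control siRNA, and its 95% confidence interval on the log2 scale was -0.16 to 0.19 (log2 fold change 0.014 with SE 0.0788, edgeR adjusted p = 0.922). POLR1B, which completes the catalytic centre, had 94.3, 92.8 and 90.4 CPM after lncSLCC1 siRNA, against 88.4, 85.9 and 105 CPM after control siRNA, with an interval of -0.22 to 0.20 (log2 fold change -0.0086 with SE 0.0939, edgeR adjusted p = 0.963). The groups overlapped for both genes, and the sign of each small difference changed between alternative analyses. POLR1E, a polymerase I-specific subunit, had 51.02, 53.9 and 54.2 CPM after lncSLCC1 siRNA, against 67.9, 62.7 and 58.6 CPM after control siRNA, lower in each lncSLCC1 siRNA library but short of the threshold (log2 fold change -0.25 with SE 0.0901, edgeR adjusted p = 0.0909). It passed without control replicate 1 (log2 fold change -0.20, adjusted p = 0.0367) and without control replicate 3 (-0.30, adjusted p = 0.0367). UBTF, the architectural protein that coats active ribosomal DNA, had 239.7, 239 and 230.2 CPM after lncSLCC1 siRNA, against 275, 246 and 238 CPM after control siRNA (log2 fold change -0.099 with SE 0.0794, edgeR adjusted p = 0.421). TAF1D, a subunit of the promoter selectivity factor, had 153, 144 and 157 CPM after lncSLCC1 siRNA, against 92.1, 175 and 164 CPM after control siRNA (log2 fold change 0.073 with SE 0.194, edgeR adjusted p = 0.8296). Here control replicate 1 alone was far below the other libraries, and without it the log2 fold change was -0.17 with an adjusted p of 0.0347 by edgeR.

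All 3 members of the box C/D snoRNP, which adds methyl groups to riboses of the precursor, fell, against 7.39% of all tested genes. NOP56, a core scaffold protein, stood at 383, 384 and 391 CPM after lncSLCC1 siRNA, against 665, 556 and 515 CPM after control siRNA. Every lncSLCC1 siRNA library was below the lowest control library, the controls being the more scattered, and the mean was 66.7% of the control mean (log2 fold change -0.58 with SE 0.0972, edgeR adjusted p = 0.00577). FBL, the methyltransferase fibrillarin, averaged 247 ± 8.97 CPM after lncSLCC1 siRNA and 326 ± 54.8 CPM after control siRNA (SD, n = 3 each) (log2 fold change -0.40 with SE 0.113, edgeR adjusted p = 0.0433). NOP58, the partner scaffold of NOP56, averaged 164 ± 4.49 CPM after lncSLCC1 siRNA and 209 ± 10.3 CPM after control siRNA (SD, n = 3 each) (log2 fold change -0.35 with SE 0.0744, edgeR adjusted p = 0.0162). Leaving out control replicate 2 ended the calls of FBL and NOP58 (edgeR adjusted p = 0.121 and 0.0735). So did leaving out any lncSLCC1 siRNA library (0.128 to 0.173 for FBL and 0.0824 to 0.112 for NOP58). NOP56 kept its call whichever library was left out, with a largest adjusted p of 0.0472. In the box H/ACA snoRNP, which turns uridine into pseudouridine, 1 of 4 members fell, against 7.39% of all tested genes. It was GAR1, at 48.96, 42.3 and 44.3 CPM after lncSLCC1 siRNA, against 60.01, 67.2 and 55.2 CPM after control siRNA (log2 fold change -0.43 with SE 0.104, edgeR adjusted p = 0.0265). Its call ended without control replicate 2 (0.115) or any lncSLCC1 siRNA library (0.0683 to 0.142). The pseudouridine synthase gene DKC1 missed the threshold at log2 fold change -0.21 with SE 0.0792, edgeR adjusted p = 0.107. So did NHP2 at -0.37 (SE 0.129, 0.0805) and NOP10 at -0.12 (SE 0.132, 0.568). DKC1 and NHP2 passed without control replicate 1 (0.0476 and 0.0274, at log2 fold changes of -0.14 and -0.23), and NHP2 also without control replicate 3 (0.0217).

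Among 14 members that build the small subunit, 4 fell, 0 rose and 10 did not pass the test (median log2 fold change -0.14, range -0.84 to 0.062). Of all tested genes, 7.39% fell and 6.46% rose. RRP9, the protein that marks the snoRNP guiding the early cleavages of the precursor, had 52.4, 49.8 and 47.2 CPM after lncSLCC1 siRNA, against 101, 88.8 and 78.2 CPM after control siRNA. No lncSLCC1 siRNA library came near the lowest control library, and the mean was 55.7% of the control mean (log2 fold change -0.84 with SE 0.108, edgeR adjusted p = 0.00164). LYAR, a nucleolar zinc-finger protein of precursor processing, had 67.7, 66.3 and 64.1 CPM after lncSLCC1 siRNA, against 101, 93.2 and 90.1 CPM after control siRNA (log2 fold change -0.52 with SE 0.0834, edgeR adjusted p = 0.00467). Both kept their calls whichever library was left out, with largest adjusted p-values of 0.02001 and 0.0475 by edgeR. BYSL, which encodes bystin, averaged 62.2 ± 1.82 CPM after lncSLCC1 siRNA and 84.2 ± 12.1 CPM after control siRNA (SD, n = 3 each) (log2 fold change -0.44 with SE 0.108, edgeR adjusted p = 0.02803), and the helicase gene DDX10 averaged 61.3 ± 3.67 CPM after lncSLCC1 siRNA and 76.3 ± 2.35 CPM after control siRNA (SD, n = 3 each) (log2 fold change -0.32 with SE 0.08501, edgeR adjusted p = 0.0375). Both of these calls ended without control replicate 2 (edgeR adjusted p = 0.0718 for BYSL and 0.131 for DDX10). They also ended without any lncSLCC1 siRNA library (0.0947 to 0.131 and 0.108 to 0.195).

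UTP20 and HEATR1, large scaffold proteins of the small subunit processome, did not pass the test. UTP20 had 133, 139 and 134 CPM after lncSLCC1 siRNA, against 129, 142 and 161 CPM after control siRNA (log2 fold change -0.097 with SE 0.0922, edgeR adjusted p = 0.506), and HEATR1 had 134, 137 and 141 CPM after lncSLCC1 siRNA, against 116, 125 and 153 CPM after control siRNA (log2 fold change 0.062 with SE 0.105, edgeR adjusted p = 0.716). In both the control libraries spread on either side of the lncSLCC1 siRNA libraries. UTP15, WDR75, NOP14 and the rRNA acetyltransferase gene NAT10 also overlapped between groups, at log2 fold changes of 0.048, -0.10, -0.086 and -0.083 (SE 0.159, 0.0904, 0.101 and 0.0797). DDX21, a helicase of polymerase I transcription and precursor processing, had 398, 416 and 395 CPM after lncSLCC1 siRNA, against 325, 456 and 499 CPM after control siRNA (log2 fold change -0.082 with SE 0.135, edgeR adjusted p = 0.711). Control replicate 1 was the lowest library and the other control libraries were above all others. Without control replicate 1 the log2 fold change was -0.25 with an adjusted p of 0.00138. WDR43, a processome protein, had 141, 144 and 137 CPM after lncSLCC1 siRNA, against 139.7, 165 and 175 CPM after control siRNA, with overlapping groups (log2 fold change -0.19 with SE 0.0938, edgeR adjusted p = 0.202). Of the analyses that left out 1 library, WDR43, UTP20 and WDR75 passed only without control replicate 1, at log2 fold changes of -0.28, -0.17 and -0.17 (adjusted p = 7.8e-04, 0.0405 and 0.0402 by edgeR). RRP12, which acts in export of the subunits, had a log2 fold change of -0.30 (adjusted p = 0.0599) and passed without control replicate 1 (0.0103) or 3 (0.0122). NOB1, the nuclease of the last small subunit cleavage, was at -0.23 (SE 0.0945, adjusted p = 0.124), with lncSLCC1 siRNA libraries below all controls.

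The large subunit genes were the group with the most falls: 10 of 13 members fell and 0 rose (median log2 fold change -0.42, range -1.16 to -0.20). Of all tested genes, 7.39% fell and 6.46% rose. In all 13 the lncSLCC1 siRNA libraries lay below all control libraries, as they did for 19.6% of all tested genes. EBNA1BP2, a nucleolar scaffold of the early large subunit precursor, had the largest fall of the 45 members. EBNA1BP2 had 87.8, 85.3 and 86.2 CPM in replicates 1, 2 and 3 of lncSLCC1 siRNA, against 231, 184 and 164 CPM in replicates 1, 2 and 3 of control siRNA. The highest lncSLCC1 siRNA value was far below the lowest control value, and the mean was 44.7% of the control mean (log2 fold change -1.16 with SE 0.119, edgeR adjusted p = 4.9e-04, 95% confidence interval -1.43 to -0.90). Per kilobase it averaged 57.5 CPM per kilobase in lncSLCC1 siRNA libraries and 129 in control siRNA libraries, number 17 and number 6 of the members. NOP2, a cytosine methyltransferase of the large subunit rRNA, had 174, 175 and 168 CPM after lncSLCC1 siRNA, against 311, 251 and 261 CPM after control siRNA (log2 fold change -0.67 with SE 0.0925, edgeR adjusted p = 0.00253). RRP1 had 95.7, 88.7 and 97.2 CPM after lncSLCC1 siRNA, against 161, 133 and 125 CPM after control siRNA (log2 fold change -0.57 with SE 0.103, edgeR adjusted p = 0.00789). EBNA1BP2 and NOP2 kept their calls whichever library was left out (largest adjusted p = 0.00766 and 0.0281), and RRP1 lost its call without lncSLCC1 siRNA replicate 2 (0.0632).

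The 3 proteins of the PeBoW complex, which acts in large subunit precursor cleavage, differed in level and in evidence. BOP1 had 6.31, 6.002 and 6.16 CPM after lncSLCC1 siRNA, against 9.47, 8.13 and 8.46 CPM after control siRNA (log2 fold change -0.50 with SE 0.131, edgeR adjusted p = 0.0353), from 79 to 133 reads per library. WDR12 averaged 71.02 ± 2.34 CPM after lncSLCC1 siRNA and 88.4 ± 6.89 CPM after control siRNA (SD, n = 3 each) (log2 fold change -0.32 with SE 0.0877, edgeR adjusted p = 0.0411). PES1 had 259, 249 and 254 CPM after lncSLCC1 siRNA, against 333, 279 and 263 CPM after control siRNA, short of the threshold (log2 fold change -0.20 with SE 0.0946, edgeR adjusted p = 0.177). The 3 differences had the same direction, and whether they differ from each other was not tested. Falls were also found in NOP16 (log2 fold change -0.47, SE 0.103) and MRTO4, which resembles a ribosomal stalk protein (-0.42, SE 0.1096). The last of them were the GTPase gene GNL3 or nucleostemin (-0.38, SE 0.0717), RRS1 (-0.35, SE 0.0916) and the helicase gene DDX18 (-0.31, SE 0.0849), with edgeR adjusted p-values of 0.00926 to 0.0394. The helicase gene DDX56 was at -0.22 (SE 0.0945, adjusted p = 0.1398) and PPAN at -0.42 (SE 0.168, 0.122). PPAN had only 51 to 81 reads per library, and its exons overlap those of the annotated read-through gene PPAN-P2RY11, so its count is uncertain. The calls of BOP1, WDR12, NOP16, MRTO4, RRS1 and DDX18 ended without control replicate 2 and without each lncSLCC1 siRNA library in turn. That of GNL3 ended without each lncSLCC1 siRNA library. Over these cases edgeR adjusted p-values were 0.0594 to 0.171. PES1, DDX56 and PPAN passed without control replicate 3 alone (0.0485, 0.0438 and 0.0453). Without control replicate 1, the highest library for PES1 and DDX56, their log2 fold changes were -0.095 and -0.12 (edgeR adjusted p = 0.191 and 0.114).

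Of 100 other factors of the same pathway, all of them tested, 16 fell and 0 rose, against 7.39% and 6.46% of all tested genes, with a median log2 fold change of -0.17. At an unadjusted p under 0.05, 42 were lower and 1 was higher, against 16.3% and 15.3% of all tested genes. Falls were found in 3 of 13 other polymerase I and shared subunits and factors, 5 of 46 other small subunit factors and 8 of 41 other large subunit factors. The smallest p-values belonged to PNO1, a small subunit factor that works with NOB1 (log2 fold change -0.75 with SE 0.101, edgeR adjusted p = 0.00217), and RPF2, which works with RRS1 (-0.60, SE 0.0913, 0.00382). Next came RSL24D1, a large subunit precursor protein (-0.69, SE 0.135, 0.0111), POLR2H, a subunit common to the nuclear RNA polymerases (-0.51, SE 0.1001, 0.0114) and CIRH1A, a processome scaffold (-0.40, SE 0.0795, 0.0122). Among the polymerase I subunits of that list, POLR1D, which pairs with POLR1C, fell by 0.379 on the log2 scale and CD3EAP, which pairs with POLR1E, by 0.721 (edgeR adjusted p = 0.0259 and 0.0338). TWISTNB and ZNRD1, also on that list, overlapped between groups at log2 fold changes of 0.029 and -0.27 (edgeR adjusted p = 0.946 and 0.344). Without control replicates 1, 2 and 3 in turn, 43, 3 and 36 of these 100 factors were called lower, against 15.5%, 2.26% and 13.4% of all tested genes. Without lncSLCC1 siRNA replicates 1, 2 and 3 in turn it was 2 each time, against 2.04%, 1.6% and 1.56%. Without control replicate 2 or any lncSLCC1 siRNA library the factors were thus called lower at about the share of all genes.

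MYC itself had 171, 157 and 158 CPM after lncSLCC1 siRNA, against 258, 244 and 221 CPM after control siRNA (log2 fold change -0.58 with SE 0.0837, edgeR adjusted p = 0.00306), with all lncSLCC1 siRNA libraries below all controls. Its part in the members' differences was not tested. Promoter windows of the members were searched for the E-box word CACGTG, which reads the same on both strands. The windows are RefSeq sequence of build GRCh38.p14, from 250 bases before to 50 bases after each annotated start. A window was found for 37 members. No window was found for BOP1, DDX18, NOLC1, NOP58, POLR1E, RRP12, RRS1 and TCOF1. The word stood in the windows of 16 of the 37 members (43.2%), against 12.5% of the 9761 tested genes with a window and 8.77% of all 27305 symbols with a window. Of the 16 members with the word, 9 fell and 7 did not pass the test (median log2 fold change -0.39). Of the 21 without it, 7 fell and 14 did not pass (median -0.22), and 7.39% of all tested genes fell. How often tested genes with the word fell was not counted. The part of the word in the members' differences was not tested. The word is a match of letters and not evidence of binding in these cells. The sites of the 9 members that fell are shown first, because they give the word and its surroundings in the genes that moved. Capitals mark the word, and up to 12 bases are given on each side, 5′ to 3′ on the strand of the gene. EBNA1BP2 has the word in the windows of both of its annotated starts, and the NOP2 site and the second EBNA1BP2 site run to the end of the window.
EBNA1BP2 (GRCh38.p14 chr1:43172790-43172819, minus strand): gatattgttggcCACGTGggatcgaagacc
EBNA1BP2 (GRCh38.p14 chr1:43172241-43172260, minus strand): gcgattcggtggCACGTGga
RRP9 (GRCh38.p14 chr3:51941892-51941921, minus strand): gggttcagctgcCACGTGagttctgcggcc
NOP2 (GRCh38.p14 chr12:6568242-6568268, minus strand): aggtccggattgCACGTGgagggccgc
LYAR (GRCh38.p14 chr4:4290068-4290097, minus strand): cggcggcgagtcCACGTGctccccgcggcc
BYSL (GRCh38.p14 chr6:41921515-41921544, plus strand): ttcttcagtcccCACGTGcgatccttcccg
GAR1 (GRCh38.p14 chr4:109815781-109815810, plus strand): gggccagaggggCACGTGgcgccggtgagt
MRTO4 (GRCh38.p14 chr1:19251807-19251836, plus strand): cgtcttccgccgCACGTGgattcagcgcga
FBL (GRCh38.p14 chr19:39846356-39846385, minus strand): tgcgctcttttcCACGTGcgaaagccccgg
GNL3 (GRCh38.p14 chr3:52686026-52686055, plus strand): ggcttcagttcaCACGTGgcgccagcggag
The next 3 belong to members that hold the word and did not pass the test with all libraries, shown for contrast. Of these 3, UTP20 and DDX21 were called lower without control replicate 1 (edgeR adjusted p = 0.0405 and 0.00138). WDR43, NOP14, NOP10 and PES1 also hold the word and did not pass the test, and their sites are not shown.
UTP20 (GRCh38.p14 chr12:101280083-101280112, plus strand): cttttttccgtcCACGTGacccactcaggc
NAT10 (GRCh38.p14 chr11:34105602-34105631, plus strand): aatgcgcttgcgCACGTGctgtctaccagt
DDX21 (GRCh38.p14 chr10:68956604-68956633, plus strand): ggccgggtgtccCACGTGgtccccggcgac
The word began 5 bases before the annotated start in RRP9 and 6 bases after it in GNL3 and FBL, which fell. It began 10, 15 and 31 bases before the start in UTP20, NAT10 and DDX21, which did not pass the test. Among these genes, both kinds thus carried it next to the start. Sites farther away began 64 bases before the start in LYAR, 237 before 1 start of EBNA1BP2 and 170 before that of NOP10. NOP10 also had a site 11 bases before its start.

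Members also differed in base composition, from 38.7% to 65.2% GC in the annotated transcript used for length, and this moved with the scatter of the controls. Control replicate 1 was the highest control library for 22 of the 23 members with the higher GC content and for 7 of the 22 with the lower, and the lowest control library for 0 and 12 of them. Across the 45 members the log2 difference of control replicate 1 from the other controls correlated with GC content at r = 0.72, a description over genes of the same 6 libraries. The log2 fold change between the groups correlated with GC content at r = -0.27 and with log2 transcript length at r = 0.40, likewise a description over genes. With all libraries the 23 GC-rich members had a median log2 fold change of -0.37 with 11 falls. The 22 GC-poor members had -0.19 with 9 falls. Of all tested genes, of any GC content, 7.39% fell. Without control replicate 1, 31 of 45 members were lower and 2 higher, with NOLC1 and TCOF1 the higher ones, against 15.5% and 13.5% of all tested genes. The median was then -0.25. With offsets for GC content and length 30 were lower and 2 higher, against 16% and 14.1% of all tested genes. The part of base composition and transcript length in the members' differences was not tested beyond these analyses.

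**Figure D3:**
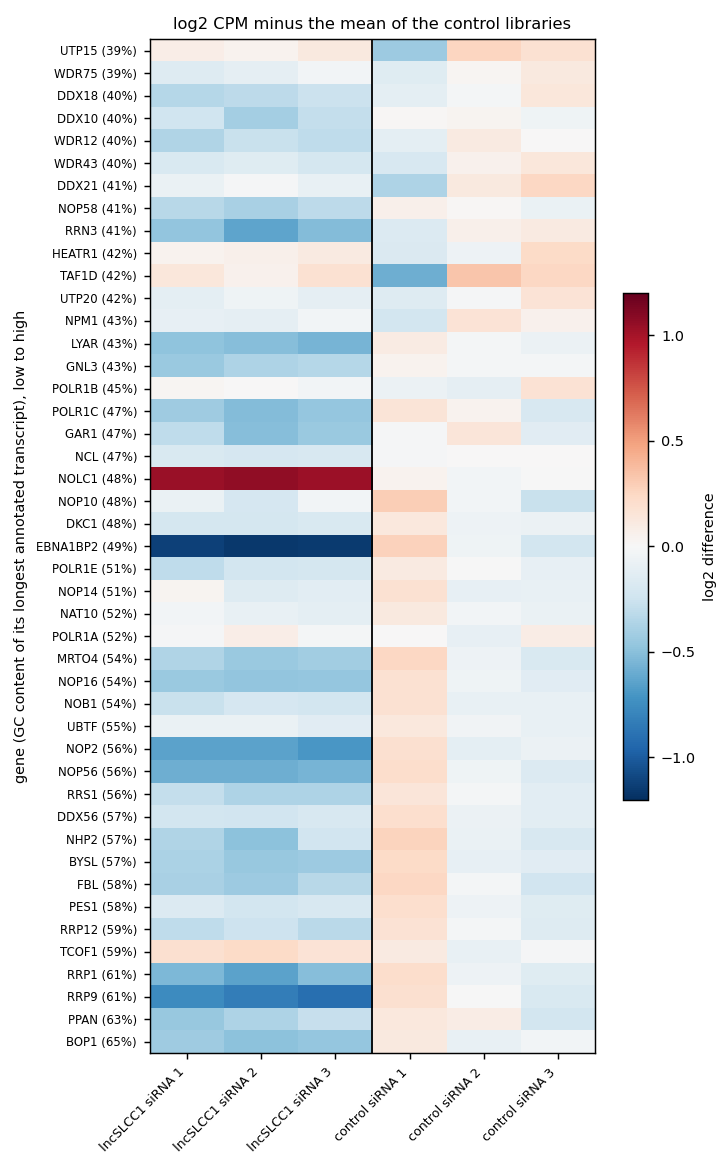
Log2 CPM of the 45 members in each library minus the mean of the control libraries (colour), with lncSLCC1 siRNA libraries on the left. Genes are ordered down the page by GC content of the annotated transcript used for length. In control replicate 1 the GC-poor genes at the top are mostly lower and the GC-rich genes at the bottom higher, while EBNA1BP2, RRP9 and NOP2 are dark blue and NOLC1 dark red in all 3 lncSLCC1 siRNA libraries.

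Of the 21 called members, 6 kept their call in each of the 6 analyses that left out 1 library, namely NOLC1, EBNA1BP2, RRP9, NOP2, NOP56 and LYAR. The others lost it in at least 1. Without control replicate 2, 7 members were lower and 1 higher, against 2.26% and 1.69% of all tested genes. Without control replicate 3 it was 26 and 1, against 13.4% and 10.3%. Without lncSLCC1 siRNA replicates 1, 2 and 3 in turn, 7, 5 and 6 members were lower, against 2.04%, 1.6% and 1.56% of all tested genes. NOLC1 alone was higher in each of these 3, against 1.75%, 1.43% and 1.37%. With all libraries, DESeq2 and limma-voom each called 19 members lower, against 8.12% and 6.87%, and NOLC1 higher, against 6.4% and 6.34%. DESeq2 lost BOP1 (adjusted p = 0.0543) and limma-voom lost FBL (0.0519). With library totals in place of TMM 16 were lower and 2 higher, against 5.34% and 9.46%. That scaling ended the calls of FBL, DDX10, WDR12 and DDX18 (0.0609, 0.06703, 0.09796 and 0.1005) and added TCOF1. No called member changed sign in any of the 14 alternatives, and 8 members that were not called did.

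**Figure D4:**
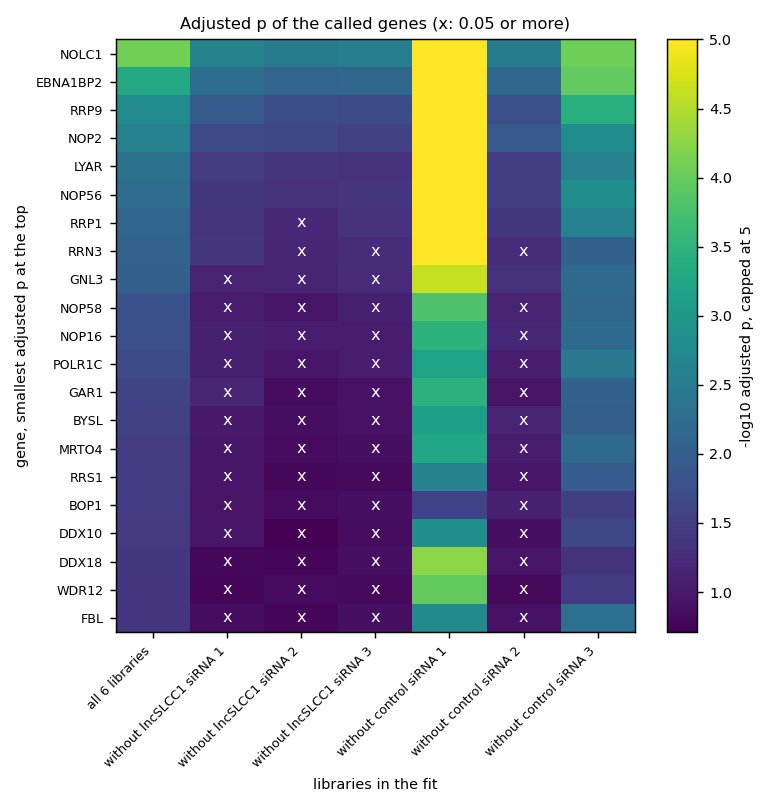
Adjusted p by edgeR (colour, as -log10, capped at 5) of the 21 called members with all 6 libraries and with each library left out; a cross marks 0.05 or more. The 6 genes at the top, from NOLC1 to NOP56, hold no cross, and the genes below lose the call mostly without control replicate 2 or a lncSLCC1 siRNA library.

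Other features of the members were set beside their differences. Small nucleolar RNA genes lie inside 9 members by GENCODE release 29, among them NOP56, NOP58, NCL, GNL3 and TAF1D. Of these 9, 4 fell and 0 rose (median log2 fold change -0.35), and of the other 36, 16 fell and 1 rose (median -0.28). Of all tested genes, 7.39% fell and 6.46% rose. In order of level per kilobase, NCL, NPM1, FBL and NOP56 led in both groups, and UTP15, BOP1 and PPAN stood near the end in both. The polymerase subunits POLR1A, POLR1B and POLR1C were between 16.6 and 21.3 CPM per kilobase after lncSLCC1 siRNA and between 18.4 and 23.2 after control siRNA. Exons of the called members EBNA1BP2, POLR1C, MRTO4, NOP16, WDR12 and GNL3 overlap an annotated gene on the opposite strand, which is CFAP57 for EBNA1BP2, as do those of NOP14, NOB1, RRP12, UTP15 and other members not called. Exons of the called members NOP2 and RRS1 overlap a gene on the same strand. Counts of these members are therefore uncertain, and the sources used here do not give the strand setting of the counting.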

How the data were processed

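Per the submitters' processing notes, reads were aligned with TopHat2 2.0.11 and counted with HTSeq on builds hg19 and GRCh37. The sources used here give no annotation release, strand setting or library selection. The authors deposited raw counts per gene symbol, 1 table per library, and groups came from the labels. HTSeq's summary lines stayed out of library sizes. Per library, reads without a feature made up 5.42% to 7.58% of all reads and alignments, ambiguous reads 8.83% to 10.1% and alignments that were not unique 12.8% to 13.8%.

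Differences were tested in edgeR 4.0.16 (R 4.3.3) by quasi-likelihood on all 6 libraries with TMM, the default expression filter and no covariate. P-values were adjusted over all tested genes, and standard errors were derived from F. Alternatives were DESeq2 1.42.0, limma-voom (limma 3.58.1), DESeq2 size factors, library totals, other filters, the replicate number as a block, offsets for GC content and length, and leaving out 1 library. The self-test used simulated counts. Length and GC content came from the longest transcript of the GENCODE 29 basic set, or the longest of all where none was basic. Transcripts were taken by symbol from another build than the files', so the only coordinates given are those of the promoter sites. CPM per kilobase used this length. Length and GC content were found for 63.1% of symbols and all 45 members. No libraries agreed within sampling noise (chi-square per gene 1.87 to 1.99 among lncSLCC1 siRNA libraries and 5.97 to 31.2 among control libraries).

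The members and lists were chosen with earlier results of these data known. All members were named; per-library values were given for up to 8 called members with the largest differences in each direction and for RNA polymerase I members, with others added after their values were seen, and the 5 other factors with the smallest p.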

Additional observations from a re-analysis of the deposited data

How the results depend on the processing

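With library totals the members' median log2 fold change was -0.23, with 16 members lower and 2 higher. Of the other pathway factors 15 were lower and 2 higher. Of all tested genes 5.34% were lower and 9.46% higher, and 63.9% of all calls were higher, against 46.6% with TMM. With no low-count filter 1600 genes were higher (5.33% of those tested) and 1672 lower (5.57%), with 27 other factors lower and 1 higher. With GC content and length offsets 2156 genes were higher (14.1% of those tested) and 2436 lower (16%). Of the members 30 were lower and 2 higher, and of the other factors 49 were lower and 2 higher. With 1 library left out, 213 to 2112 genes were higher (1.37% to 13.5% of those tested) and 244 to 2431 lower (1.56% to 15.5%). Members ran from 5 to 31 lower and 1 to 2 higher, and other factors from 2 to 43 lower and 0 to 4 higher. The members' median ran from -0.30 to -0.25.

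Signs changed only for members not called with all libraries, of which TAF1D and DDX21 were called lower without control replicate 1. With library totals POLR1B was at 0.060. With GC content and length offsets POLR1A, UTP15, HEATR1 and NOP10 were at -0.0675, -0.0674, -0.0675 and 0.018. With 1 library left out, log2 fold changes ran from -0.037 to 0.059 for POLR1A, -0.066 to 0.082 for POLR1B, -0.17 to 0.23 for TAF1D, -0.14 to 0.17 for UTP15, -0.022 to 0.18 for HEATR1, -0.25 to 0.038 for NOP10, -0.15 to 0.011 for NOP14 and -0.25 to 0.041 for DDX21. The cause was not tested.

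Replicate numbers showed no sign of pairing the libraries. Deviations of same-numbered libraries correlated at 0.094, 0.0014 and -0.016, and those of differently numbered libraries at -0.085 to 0.102. Whether same-numbered libraries were prepared together cannot be told from these values. With the replicate number as a block 18 members were lower (6.95% of all tested genes) and 1 higher (6.51%), all called without it, and DDX10 and WDR12 lost their calls. Low counts limit BOP1 and PPAN most.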

Other observations

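Reads at NPM1 pseudogenes outnumbered those at NPM1. A single symbol, NPM1P27, held 81939 reads over the 6 libraries, 92.8% of the reads of the 45 NPM1 pseudogene symbols. The pseudogenes together averaged 945 ± 17.7 CPM in lncSLCC1 siRNA libraries and 1052 ± 32.8 CPM in control siRNA libraries (SD, n = 3 each), with every lncSLCC1 siRNA library below every control library, whereas NPM1 itself overlapped between groups. The exact permutation test, two-sided on log2 CPM, gave p = 0.1 for the pseudogenes and for NPM1 and pseudogenes together, the smallest that 3 against 3 libraries allow. How many of these reads came from NPM1 transcripts cannot be told from the count tables.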
